A study of Mus musculus with 24 samples.

Results

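Type 2 alveolar epithelial cells (AEC2s) from Krt8-/- and Krt8+/+ mice were compared after 1 day of 2D culture, in 6 of the 24 libraries of the series. They were the 3 libraries labelled KO and the 3 labelled WT on day 1, paired by the date on which the cells of both were isolated, from different mice. The other 18 libraries hold day 0 (freshly isolated cells) and days 3 and 7 from the same 3 isolations. They entered the fit to estimate the spread and are described only where day 1 is set against them. The labels give the genotype and day of each library and its isolation as a batch date with a biological replicate number, but no strain, age or sex, and the study describes the mutant as a global knockout, so that every cell type in the culture lacked the gene. The 6 libraries held 13646726, 10184439 and 14370403 counts in Krt8+/+ AECs and 10979481, 12838685 and 12418970 in Krt8-/- AECs (isolations 1, 2 and 3).

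Keratin 8, with its partner keratin 18, forms the intermediate filaments of simple epithelia, which are anchored at desmosomes and hemidesmosomes and carry mechanical load. In the injured lung, AEC2s that leave the surfactant-producing state can pass through a transitional state rich in keratins before they flatten into type 1 cells (AEC1s). Flat culture takes AEC2s along the same path, and day 1 is an early point on it. The comparison asks whether cells that enter this state without keratin 8 differ in other transcripts, and whether small shifts of a pathway recur in all 3 isolations.

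Some libraries stood apart before any comparison was made. In isolation 1, the Krt8+/+ library held the female transcript Xist at 67.9 CPM (counts scaled to the size of the library) and Y-linked Ddx3y at 0.441 CPM, whereas the Krt8-/- library held Xist at 5.92 CPM and Ddx3y at 71.6 CPM. In isolation 2, both libraries were high in Xist (154.5 and 100.4 CPM), and in isolation 3 both were high in Ddx3y (90.8 and 83.1 CPM). The pair of isolation 1 thus differed in sex as well as in genotype, and some of the results are also given without it. Isolation 2 was low in AEC2 transcripts in both genotypes, with the surfactant protein gene Sftpc at 12170 and 11440 CPM against 48250 to 66040 CPM in the other 4 libraries. The Krt8-/- library of isolation 1 was the only one with much immunoglobulin RNA (Igkc at 65.7 CPM). The paired libraries had correlated deviations from their group means in each isolation (r across genes 0.508, 0.502 and 0.405), and the tests rest on the 3 differences within isolations.

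Krt8 (ENSMUSG00000049382, chromosome 15 of GRCm38, 101996698 to 102004482) checks the labels. It stood at 3160, 3394 and 3071 CPM in Krt8+/+ AECs and at 47.5, 28.5 and 38.6 CPM in Krt8-/- AECs (isolations 1, 2 and 3). The means were 3208 ± 167 and 38.2 ± 9.47 CPM (SD, n = 3), and the groups were far apart. The log2 difference was -6.42 (standard error 0.21, edgeR adjusted p = 2.29e-10). The Krt8-/- libraries still held 529, 440 and 496 counts on the gene.

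Krt8-ps (ENSMUSG00000109325, chromosome 7, 23357125 to 23358069), a processed pseudogene, was lower by nearly the same amount, -6.40 (standard error 0.28, edgeR adjusted p = 7.13e-09). Its transcript of 945 bases matches that of Krt8 at 98.2% of bases without gaps. A stretch of 60 bases from the coding part of exon 1 of Krt8 (chr15:102004082-102004141, minus strand) and its counterpart in the pseudogene (chr7:23357223-23357282, plus strand) show how few bases tell them apart, with the 2 differing bases in capitals.
Krt8: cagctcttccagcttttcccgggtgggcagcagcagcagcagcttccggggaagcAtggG
Krt8-ps: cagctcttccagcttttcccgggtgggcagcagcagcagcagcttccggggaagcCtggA
In each library the pseudogene held a like share of the Krt8 counts, 3.81%, 4.34% and 5.08% in Krt8+/+ AECs and 4.35%, 3.86% and 5.04% in Krt8-/- AECs. Its value is therefore not independent of that of Krt8, since the authors' counting could split reads between them.

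Beyond Krt8 and its pseudogene, 4 genes passed the threshold. In all, 6 of the 18046 genes tested did (0.0332%), 3 higher and 3 lower in Krt8-/- AECs, by edgeR's quasi-likelihood test with Benjamini-Hochberg adjustment and a threshold of 0.05. The chromatin remodelling subunit Smarcd1, the methyltransferase-like gene Mettl7a2 and the water channel Aqp5 lie on chromosome 15 with Krt8, and the glycosyltransferase B3gnt3 lies on chromosome 8. For each of the 6 genes the libraries of the genotypes did not overlap, which was so for 5.79% of all genes tested.

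Smarcd1 (chromosome 15, 99702129 to 99713991) encodes a subunit of the SWI/SNF chromatin remodelling complex. It stood at 22.6, 15.9 and 15.96 CPM in Krt8+/+ AECs and at 2.15, 3.96 and 3.66 CPM in Krt8-/- AECs, a log2 difference of -2.45 (standard error 0.27, edgeR adjusted p = 0.00124). Mettl7a2 (chromosome 15, 100353200 to 100361840) was at 0.661, 0 and 0.611 CPM in Krt8+/+ AECs and at 18.7, 2.08 and 8.49 CPM in Krt8-/- AECs, a log2 difference of 4.45 (standard error 0.48, edgeR adjusted p = 0.0025). Every Krt8-/- library was above every Krt8+/+ library, although the Krt8-/- values spread widely. Mettl7a2 has close copies beside it, and reads may have been split among them.

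Aqp5 (chromosome 15, 99590782 to 99594829) encodes a water channel of AEC1s and of airway glands. Its levels were 179, 131 and 223 CPM in Krt8+/+ AECs and 355, 340 and 404 CPM in Krt8-/- AECs, higher in each isolation by a like amount (log2 differences 0.99, 1.37 and 0.86). The fitted difference was 1.07 (standard error 0.16, edgeR adjusted p = 0.0327). B3gnt3 (ENSMUSG00000031803, chromosome 8, 71690756 to 71701789) encodes an enzyme that extends the sugar chains of mucins and of lymphocyte homing ligands. Its levels were 4.41, 3.68 and 4.28 CPM in Krt8+/+ AECs and 9.96, 11.5 and 10.04 CPM in Krt8-/- AECs, with a log2 difference of 1.34 (standard error 0.21, edgeR adjusted p = 0.0385). Within each genotype the libraries of B3gnt3 lay close together. Aqp5, B3gnt3 and Mettl7a2 were not past the threshold without isolation 1 (edgeR adjusted p = 0.335, 0.272 and 0.0588), where their differences were 1.12, 1.43 and 4.11. Nor were they without the isolation terms in the model (edgeR adjusted p = 0.903, 0.926 and 0.0593). B3gnt3 and Aqp5 also missed it without isolation 2 (edgeR adjusted p = 0.213 and 0.243), B3gnt3 without isolation 3 (0.409), in limma voom (0.17) and in the fit of the 6 day 1 libraries alone (0.26).

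**Figure D1:**
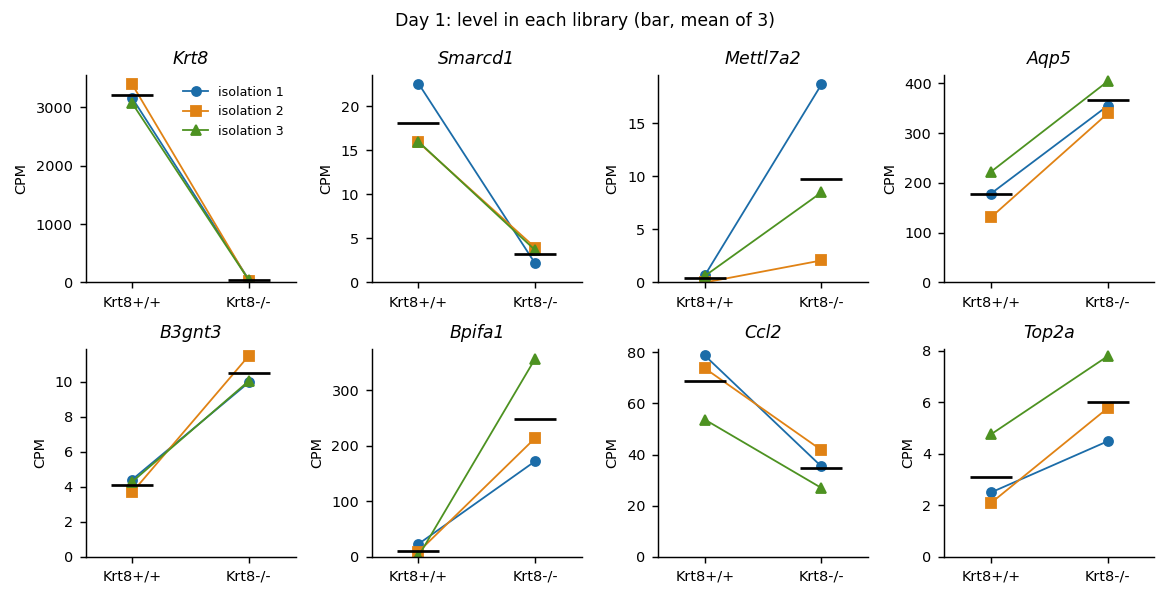
Level (CPM, linear axis from 0) of 8 genes in each of the 6 libraries of day 1, with lines joining the libraries of 1 isolation and black bars for the mean of 3. Krt8 and Smarcd1 are lower and Mettl7a2, Aqp5 and B3gnt3 higher in all 3 isolations past the threshold. Bpifa1, Ccl2 and Top2a keep 1 direction without passing it in the edgeR fit of all 24 libraries with low genes filtered out.

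The genes near Krt8 were then described together, with a window of 5 Mb chosen after their values were seen. Of 140 genes tested within 5 Mb of Krt8, Krt8 itself left out, 3 passed the threshold and 21 (15%) had an unadjusted p under 0.05. Of 575 genes on the rest of chromosome 15, none passed it and 69 (12%) had such a p, and on the other chromosomes 2 passed it and 1430 of 17330 (8.25%) had one. Those 2 were B3gnt3 and Krt8-ps, whose value is not independent of that of Krt8. Aqp5 starts 2.41 Mb, Smarcd1 2.29 Mb and Mettl7a2 1.64 Mb to one side of Krt8. On the other side, 0.46 Mb away, Prr13 was at 164, 239 and 211 CPM in Krt8+/+ AECs and 260, 297 and 365 CPM in Krt8-/- AECs (log2 difference 0.59, edgeR adjusted p = 0.199). Mettl7a3, next to Mettl7a2, had a log2 difference of 6.42 with a standard error of 1.22 (edgeR adjusted p = 0.252). A mutant allele carried with its flanking chromosome from another strain and an effect of the missing protein cannot be told apart in this design.

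**Figure D2:**
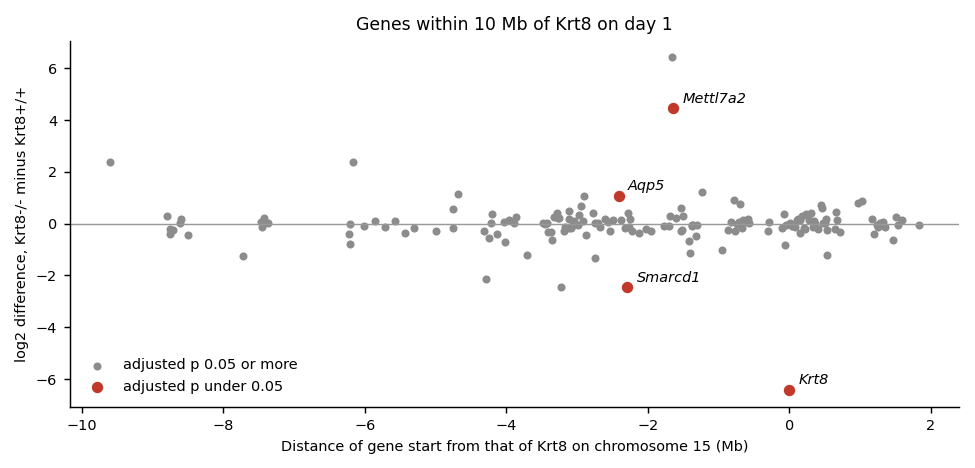
Fitted log2 difference of each gene tested within 10 Mb of Krt8 against the distance of its start from that of Krt8 (Mb), with genes past the threshold in red. Apart from Krt8, the 3 red genes lie between 1.64 and 2.41 Mb away, 2 above and 1 below 0.

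The keratins that could stand in for keratin 8 did not pass the threshold. Krt18, its usual partner, was at 1478, 1628 and 1365 CPM in Krt8+/+ AECs and at 1464, 1370 and 1314 CPM in Krt8-/- AECs, a log2 difference of -0.11 (standard error 0.13). Krt7, another type II keratin, was at 1211, 1844 and 1627 CPM and at 1413, 2096 and 1787 CPM, higher in each isolation by 0.22, 0.18 and 0.14 (fitted 0.18, standard error 0.12). The groups overlapped for both genes. Krt19 had a log2 difference of -0.10 (standard error 0.11). Of the 18 keratin genes tested, Krt8 alone passed the threshold, and the median difference was -0.07.

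Small shifts that recurred in all 3 isolations were looked for across 67 gene lists, and no list is tested here. Over all genes, 15.3% were higher and 14.1% lower in Krt8-/- AECs in 3 of 3 isolations, 4.81% were higher and 3.62% lower with an unadjusted p under 0.05, and the median log2 difference was 0. Scaling by library totals instead of TMM moved the split at an unadjusted p under 0.05 from 868 higher and 653 lower to 1123 and 533. The split was 723 and 765 with DESeq2's size factors and 603 and 659 by DESeq2's test. It was 544 and 703 in the 6 libraries of day 1 alone and 796 and 903 without isolation 2. The other fits held more genes on the higher side. Members of a list share regulation and libraries, so that a high count in 1 direction is a description of these 3 pairs. Unadjusted p-values are from edgeR. No gene named below passed the adjusted threshold in the edgeR fit of all 24 libraries, with low genes filtered out, unless stated. DESeq2 called 35 genes, among them Prr13 and, of those named below, Aak1, Ankrd1, Bcl2a1b, Bpifa1, Fam198b, Foxp4, Med25, Mmp15, Nacc1, Peak1, Slc34a2, Tmsb4x and Top2a.

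Chemokines and macrophage markers had the lowest medians among lists of at least 13 genes, -0.47 for each, and which of them was lower depended on the fit. Of 24 chemokines tested, 9 were lower in 3 of 3 isolations and 2 higher (Cxcl17 and Cx3cl1), and 9 had an unadjusted p under 0.05 on the lower side and 1 on the higher. The lower side held 4 such genes without isolation 1, 1 without the isolation terms and 2 with them as 1 term per isolation over all days. The chemokine medians were -0.48, -0.17 and -0.61 in isolations 1, 2 and 3, and the fitted median was -0.45 without isolation 1. Lower chemokine expression in Krt8-/- AECs is among the results the study drew from these libraries, so that the list is not independent evidence of its direction.

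Ccl2, a ligand that draws CCR2-bearing monocytes, was at 78.8, 73.8 and 53.7 CPM in Krt8+/+ AECs and at 35.3, 41.8 and 26.9 CPM in Krt8-/- AECs. The groups did not overlap and the difference was close to 1 log2 unit in each isolation (-1.15, -0.82 and -0.99). The fitted difference was -0.99 (standard error 0.32, unadjusted p = 0.00704, edgeR adjusted p = 0.431). In a fit of the 6 day 1 libraries alone, Ccl2 passed the threshold (-1.01, edgeR adjusted p = 0.0234), with 2 residual degrees of freedom. It also passed without the filter on low counts (-0.98, edgeR adjusted p = 1.73e-06), where 238 genes did. Among those was the Y-linked Ddx3y (edgeR adjusted p = 1.52e-17), which differed through the sex of the pair of isolation 1. Without isolation 1, Ccl2 differed by -0.91 (edgeR adjusted p = 0.621). Its neighbour and close relative Ccl7 was also lower in all 3 pairs, from 37.4, 46.1 and 26.6 CPM to 15.7, 25.9 and 14.7 CPM (-0.98, standard error 0.36, unadjusted p = 0.016).

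Among ligands of CXCR2 that attract neutrophils, Cxcl1 was at 138, 51.7 and 37.2 CPM in Krt8+/+ AECs and at 96.3, 32.9 and 30.1 CPM in Krt8-/- AECs. Its groups overlapped, because isolation 1 was high in both genotypes, but each pair was lower (-0.49, standard error 0.21, unadjusted p = 0.032). Cxcl5 differed by -1.04, Cxcl2 by -0.84 and Cxcl3 by -1.03, each lower in 3 of 3 isolations. Cxcl15, a chemokine abundant in AEC2s, was at 1504, 157 and 1077 CPM and at 1234, 123 and 653 CPM (-0.45, standard error 0.18). Cxcl17, a mucosal chemokine, was higher, from 25.8, 22.4 and 15.6 CPM to 33.1, 29.4 and 29.4 CPM, with no overlap (0.55, standard error 0.16, unadjusted p = 0.00296). The colony-stimulating factor Csf1 and the membrane-bound chemokine Cxcl16 had differences of -0.17 and 0.04.

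Cxcl1 and Cxcl2 are shown by their promoters, as chemokine genes that were lower in each isolation and are known targets of NF-kB, the transcription factor of the inflammatory response. The RefSeq sequences (GRCm38.p6, 250 bases before to 50 after the start site, 5′ to 3′) hold matches to the NF-kB consensus, in capitals, searched on both strands. The match is the same run in both genes and counts once on each strand, with the copies 1 base apart.
Cxcl1 (chr5:90890995-90891294, plus strand): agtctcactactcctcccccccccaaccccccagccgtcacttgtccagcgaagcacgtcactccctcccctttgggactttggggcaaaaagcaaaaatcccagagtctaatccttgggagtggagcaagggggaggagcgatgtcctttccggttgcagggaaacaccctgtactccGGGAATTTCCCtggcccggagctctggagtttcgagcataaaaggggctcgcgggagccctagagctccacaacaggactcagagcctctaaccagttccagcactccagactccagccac
Cxcl2 (chr5:90903649-90903948, plus strand): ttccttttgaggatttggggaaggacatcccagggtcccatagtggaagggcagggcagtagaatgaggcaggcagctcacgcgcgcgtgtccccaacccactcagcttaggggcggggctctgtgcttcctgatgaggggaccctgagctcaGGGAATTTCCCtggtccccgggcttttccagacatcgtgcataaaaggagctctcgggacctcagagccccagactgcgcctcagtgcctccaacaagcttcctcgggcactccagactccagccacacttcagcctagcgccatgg
Of the 24 chemokine genes tested, 15 were matched in the promoter table, and 7 of these held an NF-kB consensus match, against 8.18% of all 27025 promoters of that length. Cxcl1, Cxcl2, Cxcl3 and Ccl9 held one and were lower in 3 of 3 isolations, while Csf1, Cxcl10 and Ccl20 held one without a common direction, and Cxcl15 was lower in 3 of 3 isolations without one. Ccl2, Ccl7 and Cxcl5, also lower in 3 of 3 isolations, had no promoter sequence to search. Of 21 feedback genes of NF-kB, 4 were higher and 5 lower in 3 of 3 isolations, with a median of -0.05, and of the subunit genes Rela was higher (0.32, standard error 0.11, unadjusted p = 0.0126) and Rel lower (-0.69, standard error 0.24, unadjusted p = 0.012) in each isolation. The AP-1 motif TGANTCA was held by 2 of the 15 and by 7.93% of all promoters.

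Macrophage transcripts leaned lower too, but isolation 3 had the lowest chemokine median (-0.61) and the smallest macrophage shift. In bulk RNA, fewer cells of a type and less RNA per cell cannot be told apart. Of the 20 macrophage markers, 19 were tested, 9 were lower in 3 of 3 isolations and none was higher, and the median differences were -0.82, -0.40 and -0.18. The fitted median was -0.24 without isolation 1, against -0.47. The most abundant marker was Lyz2, which AEC2s also express. Without Lyz2 the summed level was 738, 473 and 89.8 CPM in Krt8+/+ AECs and 421, 372 and 85.0 CPM in Krt8-/- AECs, so that isolation 3 held few macrophage transcripts. The markers had no common direction there, with 8 of 20 higher and 12 lower in the Krt8-/- library. Among them Adgre1 was at 1.02 and 0.156 CPM and Marco at 2.24 and 0.467 CPM (Krt8+/+, then Krt8-/-), on 2 and 6 counts in the Krt8-/- library, while Mrc1 was at 3.12 and 4.44 CPM, Csf1r at 3.80 and 4.05 CPM and Cd14 at 10.05 and 14.6 CPM. No marker was at 0 in all 6 libraries. C1qb was at 0 counts in the Krt8-/- libraries of isolations 2 and 3, C1qc in that of isolation 2, Fcgr1 in that of isolation 3, and C1qa in the Krt8+/+ library of isolation 3. The chemokine Ccl9 was at 42.0, 37.3 and 2.24 CPM in Krt8+/+ AECs and at 18.6, 21.1 and 0.311 CPM in Krt8-/- AECs, lowest in isolation 3 like the macrophage sum. Ccl2 was also lowest there but less so, at 53.7 and 26.9 CPM (Krt8+/+, then Krt8-/-). Cxcl15 was lowest in isolation 2, at 157 and 123 CPM. Endothelial markers, of which 9 of 15 were tested, had medians of -0.79, 0.14 and -0.69 at a summed level of 10.4 to 33.2 CPM, and the 15 fibroblast markers medians of -0.54, 0.18 and -0.17. The part of RNA from these cell types in the chemokine differences was not tested.

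**Figure D3:**
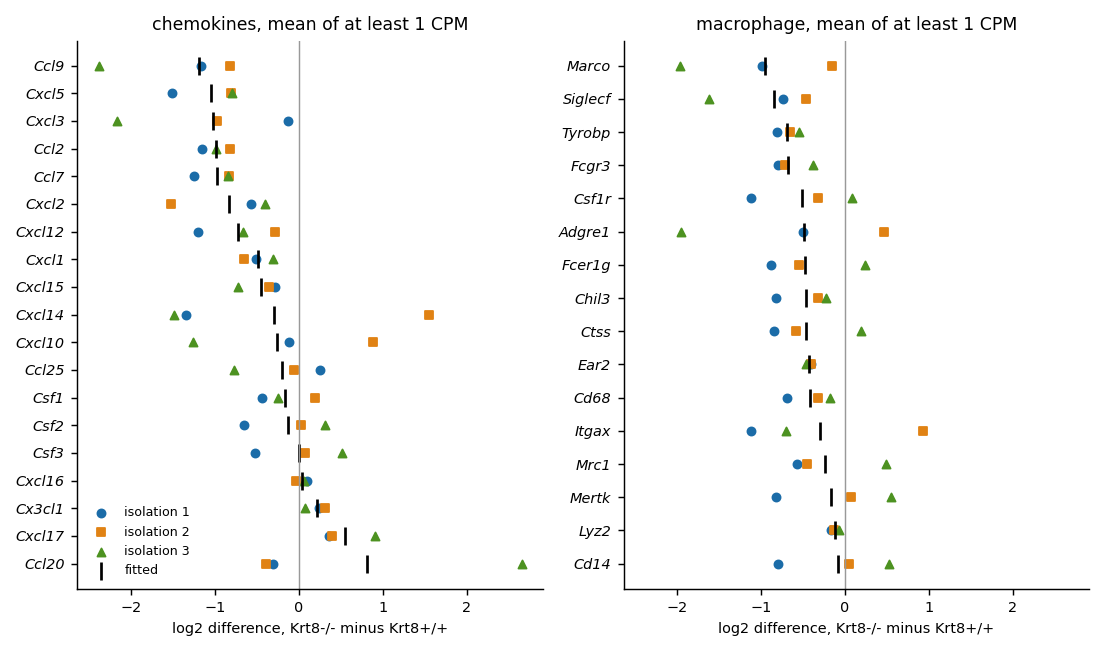
Log2 difference (Krt8-/- minus Krt8+/+) of chemokines and macrophage markers with a mean of at least 1 CPM, in each isolation and as fitted. Ccl2, Ccl7, Cxcl5, Cxcl1 and Cxcl15 lie below 0 in all isolations, and the macrophage markers lie lowest in isolation 1 for most genes.

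Proteases and their inhibitors leaned lower, with 8 of 21 lower and 2 higher in 3 of 3 isolations and a median of -0.25 (-0.27, -0.19 and -0.08), which was -0.16 without isolation 1. The urokinase gene Plau was lower (-0.88, standard error 0.31), whereas its receptor Plaur was higher (0.32, standard error 0.13). Macrophage elastase, Mmp12, was at 156, 93.5 and 0.0679 CPM in Krt8+/+ AECs and at 64.5, 60.6 and 0 CPM in Krt8-/- AECs, and so followed the macrophage transcripts across isolations.

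Junction genes leaned the other way. Of 24 tight junction and cadherin genes, 13 were higher in 3 of 3 isolations, none was lower, and the median was 0.13 (0.07, 0.22 and 0.08). The splicing regulators of epithelia Esrp1 and Esrp2 belong to this list. Esrp2 was at 53.2, 76.6 and 71.8 CPM in Krt8+/+ AECs and at 76.0, 89.7 and 96.6 CPM in Krt8-/- AECs (0.39, standard error 0.14, unadjusted p = 0.0131). Esrp1 was higher by 0.41 (standard error 0.15) and the claudin Cldn3 by 0.25 (standard error 0.11). P-cadherin, Cdh3, was at 0.588, 0.334 and 0 CPM and at 1.44, 1.49 and 0.311 CPM, too low for a firm ratio. The list had a median of 0.15 without isolation 1, 0.08 without isolation 2 and 0.16 without isolation 3. The 4 genes higher with an unadjusted p under 0.05 became 1 without isolation 1 or without isolation 3.

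The desmosome and keratin linker genes, to which keratin 8 filaments attach, had no common direction, with 4 of 17 higher and 2 lower in 3 of 3 isolations. The plakophilin Pkp2 was at 82.1, 76.2 and 77.5 CPM in Krt8+/+ AECs and at 94.9, 91.6 and 128 CPM in Krt8-/- AECs, with no overlap (0.40, standard error 0.15, unadjusted p = 0.0169). The desmosomal cadherin Dsc2 was higher in each isolation (1.14, standard error 0.37), and the linker dystonin, Dst, was lower in each (-0.33, standard error 0.15). Of 39 actomyosin and focal adhesion genes, 15 were higher and 4 lower in 3 of 3 isolations, with a median of 0.05. The adhesion scaffold Pxn was higher (0.36, standard error 0.10) and the actin-binding thymosin gene Tmsb4x lower (-0.36, standard error 0.10, from 2325, 2606 and 2810 CPM to 2038, 1888 and 2107 CPM). Neither gene's groups overlapped.

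Of 35 antioxidant genes controlled by NRF2, 13 were higher and none lower in 3 of 3 isolations, with a median of 0.09 (0.09, 0.05 and 0.13). Of these, 4 had an unadjusted p under 0.05, all on the higher side, and none did without isolation 3. Keap1, which holds NRF2 in check, was at 62.4, 56.6 and 64.0 CPM in Krt8+/+ AECs and at 72.7, 71.1 and 74.3 CPM in Krt8-/- AECs (0.25, standard error 0.10, unadjusted p = 0.0171). The peroxiredoxin Prdx6 and the pentose phosphate enzyme Tkt were higher by 0.23 (standard error 0.08) and 0.22 (standard error 0.08). Bach1, a repressor that competes with NRF2 and is not a member of the list, was named for its small p. It was lower, from 19.8, 17.6 and 24.7 CPM to 10.8, 12 and 13.4 CPM, with no overlap (-0.77, standard error 0.18, unadjusted p = 0.00081, edgeR adjusted p = 0.306).

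Enzymes of xenobiotic metabolism had a median of 0.17 (0.11, 0.26 and 0.18), which was 0.28 without isolation 1 and 0.09 without isolation 3, with 12 of 28 higher and 2 lower in 3 of 3 isolations. Aldh3a1, an aldehyde dehydrogenase, was at 114, 301 and 164 CPM in Krt8+/+ AECs and at 194, 408 and 195 CPM in Krt8-/- AECs (0.49, standard error 0.13, unadjusted p = 0.00181). The groups overlapped, since isolation 2 was highest in both genotypes. The cytochrome P450 gene Cyp2b10 was at 113, 101 and 86.0 CPM and at 158, 120 and 168 CPM, with no overlap (0.57, standard error 0.16). Of the 33 genes of fatty acid oxidation and peroxisomes, 11 were higher and 2 lower in 3 of 3 isolations. Cpt2, which readies fatty acids for oxidation inside mitochondria, was at 26.3, 29.3 and 22.5 CPM and at 39.2, 37.1 and 32.6 CPM (0.48, standard error 0.11, unadjusted p = 0.000575).

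Stress response and secretory genes had small medians, some of them uneven between isolations. In the unfolded protein response, 7 of 26 were higher and 1 lower in 3 of 3 isolations (median 0.11, with 0.06, 0.00 and 0.25 in isolations 1, 2 and 3), and in the integrated stress response 11 of 30 were higher and 4 lower (median 0.08, with 0.05, 0.06 and 0.14). The aminoacyl-tRNA synthetases Wars, Sars and Aars were higher by 0.31, 0.22 and 0.21, and the factor Atf4, which induces them, differed by -0.17 (standard error 0.11). Of the chaperone genes, Pdia4 was higher by 0.33 (standard error 0.10). Secretory pathway genes were higher in 14 of 39 cases and lower in 3, with a median of 0.10 (0.02, 0.11 and 0.08).

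Transcripts of the mitochondrial genome and of ribosomal proteins leaned lower, most of all in isolation 2, and no gene of either list passed the threshold. Of 13 protein genes of the mitochondrial genome, 11 were lower and none higher in 3 of 3 isolations, with medians of -0.13, -0.84 and -0.21. The complex I gene mt-Nd2 was at 998, 1078 and 1632 CPM in Krt8+/+ AECs and at 814, 487 and 1244 CPM in Krt8-/- AECs (-0.61, standard error 0.17, unadjusted p = 0.00304). Mitochondrial counts were 1.08% of the Krt8-/- library of isolation 2 and 1.62% to 2.95% of the other 5 libraries. Of 83 cytosolic ribosomal protein genes, 44 were lower and none higher in 3 of 3 isolations, with medians of -0.02, -0.41 and -0.17. Rps27 was at 67.0, 120 and 96.5 CPM and at 59.3, 74.7 and 70.3 CPM (-0.44, standard error 0.17). Without isolation 2, 2 mitochondrial and 4 ribosomal genes had an unadjusted p under 0.05, against 10 and 16 in the fit of all isolations. Without isolation 3 these counts were 9 and 3, and without isolation 1 they were 10 and 18. Scaling by library totals gave 9 and 6, and the model without isolation terms 1 and 1. In isolation 2 the difference also rose weakly with the combined length of a gene's exons (Spearman's rho across 18036 genes 0.165). In isolations 1 and 3 rho was -0.111 and 0.011, and the part of RNA quality was not tested.

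**Figure D4:**
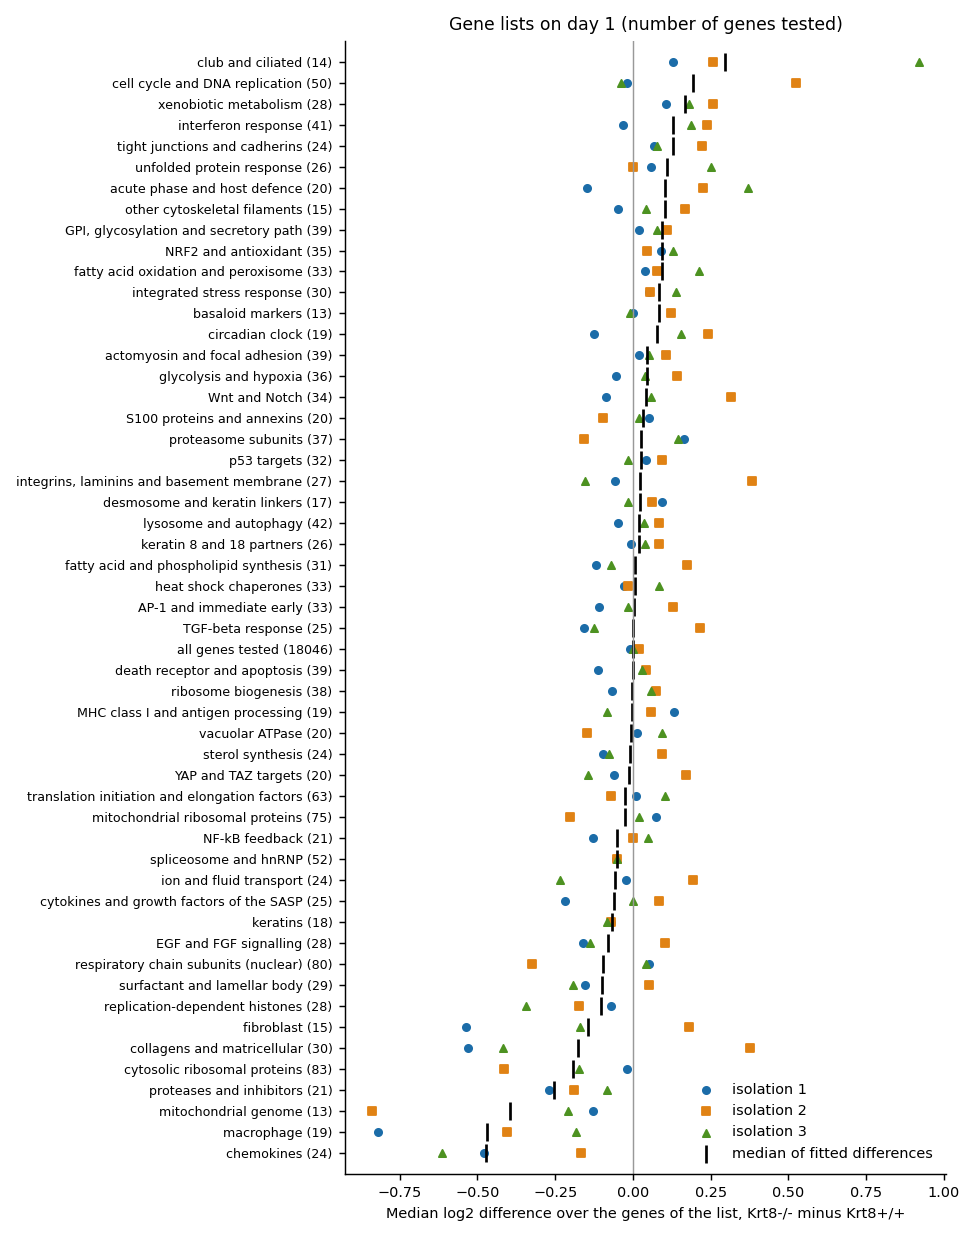
Median log2 difference (Krt8-/- minus Krt8+/+) of each gene list with at least 13 genes tested, in each isolation and over the fitted values, with the number of genes in brackets. Chemokines, macrophage and mitochondrial genes lie lowest and club and ciliated genes highest, and most lists lie within 0.25 of 0.

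AEC2 markers leaned lower, and markers of the other alveolar cell states had medians closer to 0. Of the 10 AEC2 markers of the study, 7 were lower and 1 higher in 3 of 3 isolations, with a median of -0.13 (-0.17, -0.15 and -0.11). Sfta2, a surfactant-associated protein gene, was at 45.3, 12.8 and 54.2 CPM in Krt8+/+ AECs and at 36.0, 9.60 and 37.2 CPM in Krt8-/- AECs (-0.43, standard error 0.10, unadjusted p = 0.000947). Sftpc, the gene of the peptide by which AEC2s are known, was at 66040, 12170 and 53550 CPM and at 64350, 11440 and 48250 CPM (-0.09, standard error 0.16). Among 29 surfactant and lamellar body genes, 12 were lower and none higher in 3 of 3 isolations, with medians of -0.15, 0.05 and -0.19, and the fitted median was -0.10, or -0.03 without isolation 3. The lower side held 6 genes with an unadjusted p under 0.05, 3 without isolation 3 and 1 without the isolation terms. Lower in each isolation were the phosphate transporter Slc34a2 (-0.59, standard error 0.14) and the lamellar body protein Lamp3 (-0.29, standard error 0.13). The 9 transitional state markers had a median of 0.04 and the 10 AEC1 markers -0.08, and of these lists Krt8 alone passed the threshold. Pdpn, a membrane glycoprotein of AEC1s, was at 90.6, 114 and 42.0 CPM and at 57.7, 77.4 and 38.7 CPM (-0.45, standard error 0.17, unadjusted p = 0.0198).

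Some airway genes were higher in Krt8-/- AECs. Bpifa1, a secreted host defence protein of airway epithelium, was at 22.99, 8.86 and 1.09 CPM in Krt8+/+ AECs and at 172, 214 and 356 CPM in Krt8-/- AECs. The groups did not overlap, and the difference was several log2 units in each isolation (2.90, 4.57 and 8.18). The fitted value of 4.70 had a standard error of 0.83 (unadjusted p = 8.41e-05, edgeR adjusted p = 0.138), and DESeq2 called it (5.06, adjusted p = 0.00182). In edgeR, Bpifa1 passed the threshold without isolation 3 (3.67, adjusted p = 0.00318) and without the filter on low counts (4.72, adjusted p = 3.59e-238). The fit without the filter also called the Y-linked genes Ddx3y, Eif2s3y and Uty (edgeR adjusted p = 1.52e-17, 1.49e-17 and 3.82e-05), but not Kdm5d (0.195). Their differences lay in isolation 1, whose pair differed in sex, so a small p in that fit does not mean that the isolations agreed. Bpifa1 did not pass without isolation 1 (5.99, edgeR adjusted p = 0.272) or without isolation 2 (4.70, edgeR adjusted p = 0.245). The iron-binding defence protein Ltf was at 4.63, 7.94 and 3.46 CPM and at 20.1, 26.2 and 13 CPM (1.91, standard error 0.49, unadjusted p = 0.00162), again without overlap. Ltf passed the threshold in the 6 libraries of day 1 alone and in the fit without isolation 3. Of 14 club and ciliated cell genes, 5 were higher and none lower in 3 of 3 isolations, with medians of 0.13, 0.26 and 0.92. The secretoglobin Scgb3a1 was higher in each (1.31, standard error 0.39) and the ciliary factor Foxj1 as well (0.70, standard error 0.32). The most abundant club gene, Scgb1a1, was at 4517, 15590 and 7597 CPM and at 7946, 11340 and 7185 CPM, with overlap and no common direction. The part of airway cells in the Bpifa1 difference was not tested.

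Transcripts of cell division such as Top2a were at a few CPM at this time, whereas the replication clamp gene Pcna was at 93.5, 113 and 119 CPM in Krt8+/+ AECs and at 94.5, 97.2 and 102 CPM in Krt8-/- AECs. Top2a, which untangles replicated DNA, was at 2.50, 2.09 and 4.75 CPM in Krt8+/+ AECs and at 4.48, 5.77 and 7.79 CPM in Krt8-/- AECs (0.97, standard error 0.16, unadjusted p = 2.83e-05, edgeR adjusted p = 0.073). It was higher in each isolation, although the groups overlapped. Of 50 cell cycle and replication genes, 14 were higher and 3 lower in 3 of 3 isolations, and the median was set by isolation 2 (-0.02, 0.52 and -0.04). The replication genes Rrm2 and Uhrf1 were higher by 0.61 and 0.50, and the regulator E2f1 differed by -0.63 (standard error 0.24).

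Outside the calls, the 24 genes with the smallest p, 12 in each direction, were drawn from many functions. Higher in 3 of 3 isolations and without overlap were the transcriptional regulators Nacc1 (0.56, standard error 0.11), Foxp4 (0.61, standard error 0.13) and the Mediator subunit Med25 (0.49, standard error 0.10). The growth signalling regulator Nprl3 was at 25.3, 24.8 and 21.7 CPM in Krt8+/+ AECs and at 34.7, 34.6 and 34.9 CPM in Krt8-/- AECs. Mmp15, a membrane-bound metalloproteinase, was higher by 0.69 (standard error 0.13), and Ergic1, of the early secretory pathway, by 0.38 (standard error 0.09). Lower without overlap were the cytoskeletal pseudokinase Peak1 (-0.80, standard error 0.16), the endocytic kinase Aak1 (-0.64, standard error 0.14), the lipid kinase Pikfyve (-0.65, standard error 0.15) and Fam198b (-0.80, standard error 0.16). Bcl2a1b, an anti-apoptotic gene of blood cells, was at 20.6, 18.2 and 2.65 CPM and at 8.43, 9.98 and 0.856 CPM, and was low in isolation 3, as the macrophage transcripts were. Of signalling genes in the lists, the ligand Wnt7b was at 106, 102 and 83.2 CPM and at 151, 156 and 127 CPM, with no overlap (0.58, standard error 0.17, unadjusted p = 0.0036), and the mechanical response gene Ankrd1 was lower in each isolation (-0.59, standard error 0.16).

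Whether these differences belonged to day 1 was asked of the same fit. Against the mean of days 0, 3 and 7, the genotype difference on day 1 passed the threshold for no gene by edgeR, with 1003 genes at an unadjusted p under 0.05, and for 1 gene by DESeq2. The test of genotype by day over the 4 days called 2 of 18046 genes (0.0111%), Krt8 (adjusted p = 0.00072) and Top2a (adjusted p = 0.025). The days share their 3 isolations. Smarcd1 differed by -2.91, -2.45, -3.17 and -2.87 on days 0, 1, 3 and 7, and Prr13 by 0.48, 0.59, 0.55 and 0.46. Aqp5 differed by 0.78, 1.07, 0.98 and 0.41, and B3gnt3 by 0.82, 1.34, 0.65 and 0.17. Bpifa1 differed by 3.64, 4.70, 1.76 and -0.97, and Ccl2 by -1.86, -0.99, -0.70 and -0.59, where the value of Bpifa1 on day 7 (unadjusted p = 0.89) and that of Ccl2 on day 0 (unadjusted p = 0.235) were poorly resolved. Of the named genes near 0 on day 0, Nacc1 was at -0.16 and Bach1 at -0.13 there, and on day 3 they were at -0.06 and -0.79.

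**Figure D5:**
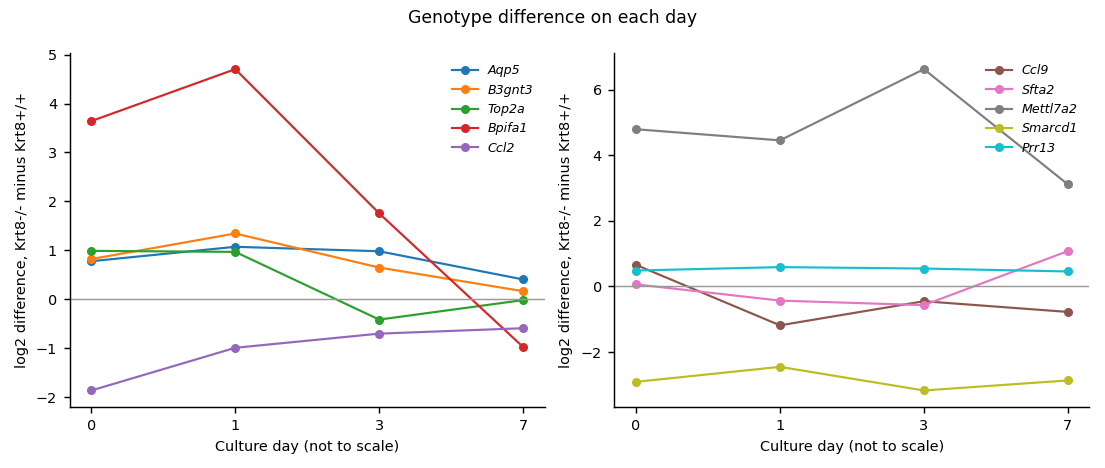
Fitted log2 difference (Krt8-/- minus Krt8+/+) of 10 genes on days 0, 1, 3 and 7 of culture, with the days evenly spaced. Smarcd1 and Prr13 stay nearly level, Bpifa1 goes from 4.70 on day 1 to a poorly resolved -0.97 on day 7, and Top2a from 0.97 on day 1 to -0.41 on day 3.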

How the data were processed

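The authors deposited 1 table of read counts per gene, not normalized. The submitters' processing notes name cutadapt 2.3, STAR 2.7.8a, RSEM 1.3.3 and the build GRCm38. All values were whole numbers, although RSEM estimates counts that need not be whole, and no source used here says whether they had been rounded. Symbols and positions came from GENCODE M21 (GRCm38), which named 55240 of 55421 identifiers, and promoters from RefSeq. The 5 reporter entries had 0 counts and were left out.

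The software was edgeR 4.0.16, DESeq2 1.42.0 and limma 3.58.1 under R 4.3.3. Low genes were dropped by filterByExpr (a minimum count of 10, in total 15), and library sizes were scaled with TMM. A quasi-likelihood model of all 24 libraries had 12 terms for isolation on each day and 4 genotype effects, with 8 residual degrees of freedom. The model took the days of an isolation as independent, although they share that isolation. P values were adjusted by Benjamini-Hochberg. Differences within isolations used log2 CPM with a prior count of 2, and a pair without counts had no direction. Isolations pair the libraries because the series' design gives each as 1 date for both genotypes. No libraries were duplicates (chi-square per gene 24.8 to 110). The procedure was tested on simulated data, and the results of that test are not given here. Members and lists were chosen with earlier results of these data known. Named genes were those past 0.05, the 12 with the smallest p in each direction with 1 direction in 3 of 3 isolations and at least 5 CPM in a genotype, up to 4 members of each list by p and abundance, and Krt8, Krt18, Krt7, Krt19, Ccl2 and sex-linked genes. Others, among them Mettl7a3, Csf1 and Cxcl5, were named after their values were seen, and a list member that met the rule is not reported here. Alternatives were the model without isolation terms or with 3 of them, the 6 libraries alone, DESeq2, voom, other scalings and filters, and each isolation left out. Counting error limits the genes with low counts.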

Additional observations from a re-analysis of the deposited data

Results flagged for a closer look

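The genotype difference of Krt8 varied over the days (edgeR adjusted p = 0.00072), from -4.17 on day 0 to -6.42 on day 1 and -7.03 on day 7. The Krt8-/- libraries held 21.2 to 47.5 CPM over all days, while the Krt8+/+ libraries held 485 to 552 CPM on day 0 and 2599 to 5092 CPM later. The difference of Top2a also varied (edgeR adjusted p = 0.025), with 0.99 and 0.97 on days 0 and 1 and -0.41 and -0.02 on days 3 and 7, and it was higher on day 1 in 3 of 3 isolations. The median of the keratin genes was below 0 in each isolation on day 1 (middle value -0.07) and above 0 in each on day 3. The median of the NRF2 and antioxidant genes was above 0 in each isolation on day 1 (middle value 0.09) and below 0 in each on day 7. Neither difference between days was tested for these lists.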

How the results depend on the processing

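The number of genes past the threshold depended on the model. It was 3 without the isolation block, 3 with the block as 1 term per isolation over all days, 35 by DESeq2 and 238 without the filter on low counts (107 higher and 131 lower, among 32971 genes tested), against 6 in the main fit. It was 5 with limma voom, 7 in the 6 libraries of day 1 alone, and 6 with DESeq2's size factors, without TMM, and with a filter of 1 CPM in 3 libraries. Leaving out an isolation gave 3 to 13 genes, with 3 without isolation 1, 8 without isolation 2 and 13 without isolation 3. Krt8, Krt8-ps and Smarcd1 passed the threshold in each of these fits. The difference of day 1 from the other days was called for 1 gene by DESeq2 and 50 without the filter, against 0. The median of the xenobiotic list was 0.25 without the filter and 0.09 to 0.28 with an isolation left out. Without isolation 1, the Y-linked genes changed sign, with Kdm5d at -0.47, Uty at -0.35, Ddx3y at -0.11 and Eif2s3y at -0.20, against 9.22, 10.06, 7.00 and 12.04 without isolation 3. The causes were not tested, except that the Y-linked genes follow the sex of the pair left out. Genes under a few CPM, such as Top2a and Cdh3, rest on few counts.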
